A study of Mus musculus with 21 samples.

Results

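The comparison described here is that of livers taken 1 day after an instillation of titanium dioxide nanoparticles (nano-TiO2) with livers taken 1 day after the vehicle alone. Its members are the arrays titled as high dose at day 1, which number 6, and those titled as control at day 1, which number 5, so that 11 of the 21 arrays of the series enter it. The other 10 arrays are the same treatments at day 28. TiO2 mice were female C57BL/6 animals that received 162 µg of nano-TiO2 once through the trachea, in 40 µl of saline that held 10% cell-free lung lavage fluid from untreated mice, under Hypnorm and Dormicum anaesthesia. Control mice were female C57BL/6 animals that received the same volume of that fluid without particles under the same anaesthesia. All had been bought at 5 to 7 weeks of age and had been kept for 1 to 3 weeks before the experiment. Any change that instillation, lavage fluid or anaesthesia brought about in both groups cannot be seen in this comparison. RNA of 1 mouse in the red dye (Cy5) was hybridised on each array against a universal mouse reference RNA from 11 cell lines in the green dye (Cy3), with no dye swap. A level below is the log2 of liver over reference, and a difference is the TiO2 level minus the control level on that scale, with its standard error (SE). The labels call the mice biological replicates, and the number of arrays limits the precision of every value.

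The liver answers inflammation elsewhere in the body with the acute phase response. Cytokines such as IL-6, IL-1 and TNF reach hepatocytes with the blood and act through STAT3, C/EBP and NF-kB factors. Hepatocytes then secrete serum amyloid A, lipocalin-2, orosomucoids, haptoglobin and other plasma proteins, while the output of some metabolic enzymes falls. Kupffer cells, the resident macrophages of the liver sinusoids, are a local source of the same cytokines and of complement C1q.

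The genes with the lowest p-values in this comparison were Lcn2, Saa3 and Saa1. Lcn2 encodes lipocalin-2, which binds bacterial iron carriers. Saa1 and Saa3 encode serum amyloid A proteins, apolipoproteins of the inflammatory response, and Saa2 lies beside Saa1 as its close paralogue. The 250 bases before the start of Lcn2, Saa3 and Saa1 are shown because these 3 had the lowest p-values, and those of Saa2 because it is the paralogue of Saa1. They are printed 5′ to 3′ on the strand of the gene from RefSeq sequences of GRCm38.p6, with capitals at each match to the C/EBP motif TTGCNNAA on either strand.
Lcn2, chr2:32387740-32387989, minus strand: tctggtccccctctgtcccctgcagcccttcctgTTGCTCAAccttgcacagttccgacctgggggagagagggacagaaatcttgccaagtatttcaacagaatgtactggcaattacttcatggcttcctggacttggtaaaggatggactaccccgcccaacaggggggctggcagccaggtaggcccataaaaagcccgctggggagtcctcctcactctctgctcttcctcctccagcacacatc
Saa3, chr7:46715677-46715926, minus strand: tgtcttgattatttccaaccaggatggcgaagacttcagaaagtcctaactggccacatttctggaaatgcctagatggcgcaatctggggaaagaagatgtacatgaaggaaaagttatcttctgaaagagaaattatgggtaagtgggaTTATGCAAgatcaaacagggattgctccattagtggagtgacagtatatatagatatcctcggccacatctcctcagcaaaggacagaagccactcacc
Saa1, chr7:46742981-46743230, minus strand: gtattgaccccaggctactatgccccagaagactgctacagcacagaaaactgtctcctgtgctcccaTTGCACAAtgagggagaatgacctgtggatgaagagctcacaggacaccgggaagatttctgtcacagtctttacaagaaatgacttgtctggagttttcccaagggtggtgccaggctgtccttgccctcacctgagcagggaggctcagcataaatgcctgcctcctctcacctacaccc
Saa2, chr7:46751583-46751832, plus strand: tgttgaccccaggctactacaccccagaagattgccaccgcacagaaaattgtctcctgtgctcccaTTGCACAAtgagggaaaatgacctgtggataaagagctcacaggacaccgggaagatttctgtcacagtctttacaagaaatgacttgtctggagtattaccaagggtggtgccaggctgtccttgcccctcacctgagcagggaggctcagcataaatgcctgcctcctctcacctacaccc

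Each of the 4 windows held 1 match to this motif, where 9.56% of 32851 mouse promoter windows of the same length held one. The match began at position -216 in Lcn2, -99 in Saa3, -182 in Saa1 and -183 in Saa2, counted back from the first transcribed base. The Saa1 and Saa2 windows are close copies of each other, so their matches are not independent. The 10-base NF-kB consensus had 0 matches in the 4 windows and was present in 7.25% of all windows. The STAT motif TTCNNNGAA likewise had 0 matches and was present in 7.02% of all windows. The matches describe these letters only, and binding was not measured.

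The arrays carried a liver profile. All 10 hepatocyte markers on the array were well above background on each of the 11 arrays by the scanner software's test. The labels name lung tissue in the RNA protocol, and 3 to 10 of 12 lung epithelial markers were well above background on TiO2 arrays and 3 to 9 on control arrays. Sftpd and Scgb1a1, a surfactant protein and a club cell protein, were so on all 6 TiO2 and all 5 control arrays, Lamp3 on 6 and 4, and Napsa on 5 and 3. The alveolar markers Ager and Sftpc were so on 0 TiO2 arrays, and on 0 and 1 control arrays. The part of lung RNA in the values below was not tested. The mean log2 ratio of the 6 lung markers tested was -0.43 to -0.09 on TiO2 arrays and -0.50 to -0.21 on control arrays. The arrays had been scanned on 3 days, each with mice of both groups, and scan day accounted for 95.4% of the first principal component, which held 45.4% of the variance. Scan day was therefore a term of the model. Scan day 1 held only 1 of the day 1 controls, replicate 1, so each difference within scan day 1 is against that mouse alone. Leaving out control replicate 1 leaves scan day 1 with no day 1 control, so these are not separate checks. For 88 of the genes named by rule, 65 had the same sign within all 3 scan days. Many were named for low p-values in these same data, which favours 1 sign, and the share of all features was not counted. Differences within each day are given for part of the genes described. Of the 88, 58 had an unadjusted p under 0.05, and 15 of these moved by over 1.5 times when 1 mouse was left out. For 12 of the 15 that mouse was control replicate 1, and the values without it are given beside them.

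In limma 0 of 15658 features (10390 named genes and 5268 unnamed probes) passed an adjusted p of 0.05, and the lowest adjusted p was 0.140. At an unadjusted p under 0.05 there were 663 features, or 4.23% of those tested, with 352 higher (2.25%) and 311 lower (1.99%) in TiO2 livers. The count was 315 without control replicate 1 and 1216 without control replicate 2. All features together had a median difference of -0.01, and 45.1% of them were higher by sign. A difference beyond 1 in either direction was found for 16 features, 11 of them higher and 5 lower. In the plot of all features, Lcn2, Saa3 and Saa1 are the points farthest from the rest.

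**Figure D1:**
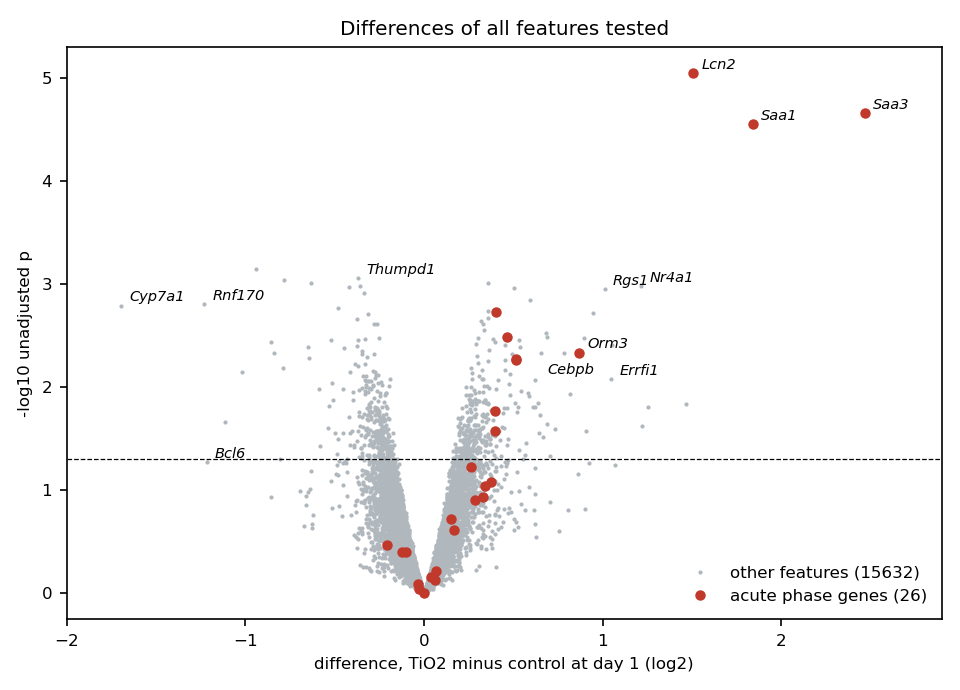
Difference between TiO2 and control livers at day 1 (log2, horizontal axis) against -log10 of the unadjusted p of limma (vertical axis), with 1 point per feature. Red points are the 26 acute phase genes, and the dashed line marks an unadjusted p of 0.05. Lcn2, Saa3 and Saa1 lie apart at the upper right, and Cyp7a1 has the most negative difference.

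Serum amyloid genes and Lcn2 lay higher in TiO2 livers than in control livers. All 5 measured members of this list were higher by sign, and 4 of 5 were so at an unadjusted p under 0.05, against 2.25% of all features. Their median difference was 1.51. Lcn2 had a lowest, median and highest level of 0.53, 2.04 and 2.83 in TiO2 livers, against 0.16, 0.53, 0.41, 0.26 and 0.54 in control livers. Its difference was 1.51 ± 0.26 (95% interval 0.97 to 2.05), or 2.84-fold, with a limma adjusted p = 0.140. In 5 of 6 TiO2 mice Lcn2 was above every control, and TiO2 replicate 2 had the lowest value, within the control range.

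Saa3, the serum amyloid A gene that macrophages also express, showed the widest gap in the ratios to the reference. Its lowest, median and highest levels were -0.81, 1.81 and 3.33 in TiO2 livers, against -1.45, -0.44, -1.29, -1.42 and -0.28 in control livers. The difference was 2.47 ± 0.46 (95% interval 1.52 to 3.42), or 5.53-fold, with a limma adjusted p = 0.145. The single TiO2 mouse inside the control range was again replicate 2.

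Saa1, a hepatocyte product carried on HDL, had a lowest, median and highest level of 3.08, 5.00 and 6.05 in TiO2 livers, against 2.85, 3.41, 2.87, 2.55 and 3.73 in control livers. Its difference was 1.84 ± 0.35 (95% interval 1.12 to 2.56), or 3.59-fold, with a limma adjusted p = 0.145. A second Saa1 probe gave a smaller difference, 1.06 ± 0.21. Saa1 and Saa2 share much of their sequence, so either probe may bind transcripts of both. The Saa1 values of 5 of 6 TiO2 mice were above all controls, with replicate 2 as the exception.

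From the ratios Saa2 differed less, with levels of 4.47 to 5.50 (median 4.97) in TiO2 livers, against 3.45, 4.74, 4.72, 4.99 and 5.01 in control livers. The difference was 0.51 ± 0.17, and 0.29 ± 0.14 without control replicate 1, the lowest mouse of either group. From the liver channel alone, with no ratio to the reference RNA, the Saa2 difference was 3.22 ± 0.57 (limma adjusted p = 0.107), beside 2.92 in Saa1 and 2.52 in Saa3. Saa4, which encodes a serum amyloid A present without inflammation, had a difference of 0.26 ± 0.13 and did not reach an unadjusted p of 0.05, and its second probe gave -0.14 ± 0.18. Without TiO2 replicate 2, limma called Lcn2 (1.74, adjusted p = 0.00034), Saa3 (2.86, adjusted p = 0.0012) and Saa1 (2.12, adjusted p = 0.0026), and no other feature. That mouse was the one within the control range in these genes, so leaving it out had to widen their differences and is no support for them. Without any other single mouse limma called 0 features, and the Lcn2 adjusted p lay between 0.0523 (without TiO2 replicate 5) and 0.631 (without TiO2 replicate 3). With slide as a random block in place of scan day, chosen after seeing the data, limma called these 3 genes with all mice included. With both terms the adjusted p-values were 0.0556 for Lcn2 and 0.0702 for Saa3 and Saa1. Which of these genes' transcripts came from hepatocytes and which from macrophages was not measured, and in whole liver fewer cells of a type cannot be told apart from less RNA per cell.

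**Figure D2:**
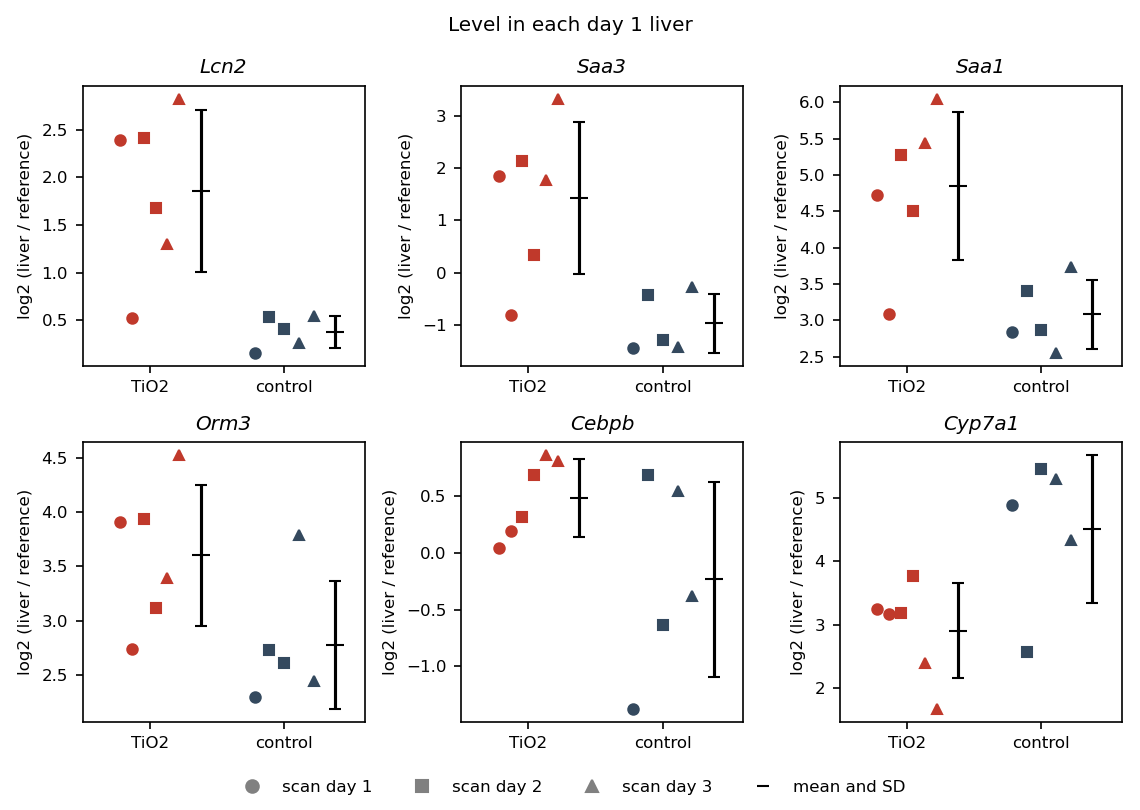
Level (log2 of liver over reference) of 6 genes in each day 1 liver, with TiO2 mice in red on the left and control mice in dark blue on the right of each panel. Symbols show the scan day, and bars show the mean and SD of each group. Lcn2, Saa3 and Saa1 have 5 of 6 TiO2 mice above all controls, and Cyp7a1 has 4 of 5 controls above all TiO2 mice.

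The TiO2 mice differed among themselves in these genes. TiO2 replicate 2 was lower than replicate 1, the other TiO2 mouse of its scan day, in 21 of 26 acute phase genes, with a median of -0.63, where 50.5% of all features were lower. Replicate 5 was lower than replicate 6 of the same scan day in 20 of 26, with a median of -0.16, where 52.4% of all features were lower. Replicate 4 was lower than replicate 3 in 9 of 26, where 37.3% of all features were lower. TiO2 replicate 6 had the highest Lcn2, Saa3, Saa1 and Orm3 level of the 11 mice.

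On 5 slides a TiO2 mouse and a control mouse at day 1 were hybridised together. Of 26 acute phase genes, 17 were higher in the TiO2 mouse on slide 1, 16 on slide 4, 25 on slide 5, 18 on slide 7 and 24 on slide 8. The shares of all features that were higher were 44.3%, 42.7%, 55.9%, 47.2% and 49.8%, in the same order of slides. Saa3 was higher by 1.62 to 3.61 over the 5 slides, Saa1 by 1.63 to 2.89 and Lcn2 by 1.04 to 2.28. Including these 3 genes, 8 of 26 acute phase genes were higher on all 5 slides, against 2.38% of all features. The other 5 were Saa4 (by the brighter of its probes), Orm1, Orm2, Hp and Itih3. TiO2 replicate 2 had no day 1 control on its slide and is not part of these pairs. In Saa3, Saa1 and Lcn2 the other 5 TiO2 mice were above every control. The signs of these 3 genes on the 5 slides were thus fixed beforehand and are no further support for them.

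**Figure D3:**
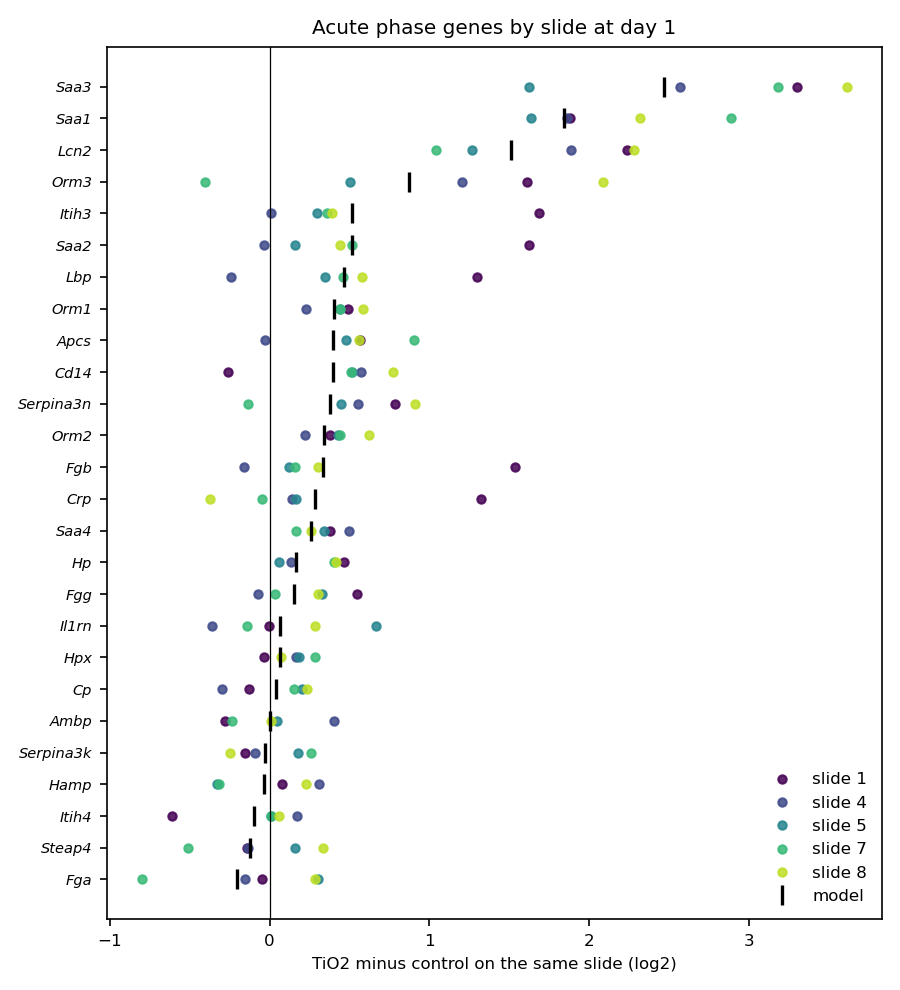
Difference between the TiO2 mouse and the control mouse on the same slide (log2, horizontal axis) for each of 26 acute phase genes, with 1 coloured point per slide and a black tick at the difference of the model. Points of Saa3, Saa1 and Lcn2 lie above 1 on every slide, and those of Fga, Steap4 and Hamp lie on both sides of 0.

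Among the other 21 acute phase genes, 16 were higher and 5 lower by sign in TiO2 livers, with a median of 0.17, which was 0.10 without control replicate 1 and 0.05 with no scan day in the model. Of these, 6 were higher at an unadjusted p under 0.05, against 2.25% of all features, and 0 were lower, against 1.99%. The 6 were Orm1, Lbp, Itih3, Orm3, Cd14 and Apcs. With single mice left out the count was 5 to 10, and it was 10 without TiO2 replicate 2. That mouse was lower than TiO2 replicate 1 in 21 of 26 acute phase genes, so this rise is no support.

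Orosomucoids are acid glycoproteins that carry drugs and lipids in plasma. Orm3 had levels of 2.73 to 4.53 (median 3.65) in TiO2 livers, against 2.30, 2.73, 2.61, 3.79 and 2.44 in control livers. The difference was 0.87 ± 0.27 with a limma adjusted p = 0.980, and control replicate 4 overlapped the TiO2 mice. Orm1 had levels of 6.54 to 7.58 in TiO2 livers and 6.28 to 7.01 in control livers, with a difference of 0.40 ± 0.11 and within each scan day of 0.38, 0.33 and 0.51. From the scanner software's own ratios it came to -0.002. Orm2 differed by 0.34 ± 0.19.

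Lbp, which hands bacterial lipopolysaccharide to its receptor, had a difference of 0.47 ± 0.14. It was 1.11, 0.05 and 0.52 within the 3 scan days, and 0.27 ± 0.12 without control replicate 1. Cd14, the receptor that takes it up, differed by 0.40 ± 0.15, with -0.13, 0.54 and 0.64 within the scan days. Itih3, a hyaluronan-binding inter-alpha-trypsin inhibitor chain, differed by 0.52 ± 0.17, of which 1.40 was on scan day 1, 0.15 on scan day 2 and 0.37 on scan day 3, and it was 0.26 ± 0.13 without control replicate 1. Apcs encodes serum amyloid P, a pentraxin, and differed by 0.40 ± 0.17. Hp, the haemoglobin-binding haptoglobin, had overlapping levels of 5.32 to 7.22 in TiO2 livers and 5.67 to 6.82 in control livers, a difference of 0.17 ± 0.14. Hamp, the iron hormone hepcidin, differed by -0.03 ± 0.14 (95% interval -0.33 to 0.26), but by 0.46 from the liver channel alone. Of 13 negative acute phase proteins, whose plasma levels drop in inflammation, 7 were higher and 6 lower by sign. An unadjusted p under 0.05 was found for 0 of the 13, against 4.23% of all features. Alb, which encodes albumin, differed by -0.02 ± 0.13.

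Cytokine and chemokine genes gave 2 of 18 measured members at an unadjusted p under 0.05, both higher, against 2.25% of all features. The count was 1 without control replicate 1 or TiO2 replicate 6 and 0 without scan day 3. Il1b, which encodes the cytokine IL-1 beta, had levels of 0.25 to 2.35 (median 1.35) in TiO2 livers, against 0.08, 1.32, 0.39, 0.81 and 0.77 in control livers. Its difference was 0.69 ± 0.28, with 3 of 6 TiO2 mice above all controls, and the probe was well above background in 5 of 6 TiO2 mice and 4 of 5 control mice. Without TiO2 replicate 6 the Il1b difference was 0.45 ± 0.25. Ccl6, a macrophage chemokine, differed by 0.48 ± 0.17, with control replicate 1 at 2.09 far below the other controls and with 0.95, 0.001 and 0.64 within the scan days. Cxcl1, a neutrophil attractant, differed by -0.41 ± 0.29, with -0.70, -0.90 and 0.21 within them.

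In the list of IL-6, IL-1 and TNF signalling, 13 members were higher and 16 lower by sign. An unadjusted p under 0.05 was found for 2 of 29, both higher, against 2.25% of all features. The signs were 16 higher and 13 lower without control replicate 2. Cebpb encodes C/EBP beta, a factor that drives acute phase genes in hepatocytes. Its levels were 0.04 to 0.86 (median 0.50) in TiO2 livers, against -1.38, 0.69, -0.63, 0.55 and -0.38 in control livers. The difference was 0.79 ± 0.25 with a limma adjusted p = 0.980, the control mice were spread over a wider range than the TiO2 mice, and a second Cebpb probe gave 0.30 ± 0.21. Tnfrsf1b, a TNF receptor of myeloid and endothelial cells, differed by 0.29 ± 0.11, with -0.08, 0.45 and 0.36 within the scan days, and its second probe gave 0.10 ± 0.11. Cebpd, the C/EBP delta gene, differed by 0.40 ± 0.22. Socs3, the feedback inhibitor induced by STAT3, differed by 0.03 ± 0.16, with 0.76, -0.52 and 0.12 within the 3 scan days. Il1rap, the shared chain of the IL-1 receptor, differed by -0.27 ± 0.16.

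Complement genes were mixed, with 17 higher and 10 lower by sign among 27, and 13 higher and 14 lower with no scan day in the model. At an unadjusted p under 0.05 there were 3 higher, namely C1qc, Mbl1 and Serping1, and 0 lower, against 2.25% and 1.99% of all features. This count was 1 without control replicate 1, 1 without TiO2 replicate 6, 0 without scan day 1, 5 without control replicate 5 or TiO2 replicate 2, 6 without control replicate 2 or scan day 2, and 8 without TiO2 replicate 3. C1qc, a chain of C1q made by macrophages, had levels of 3.71 to 5.24 (median 4.32) in TiO2 livers, against 2.92, 4.32, 4.33, 4.43 and 4.39 in control livers. Its difference of 0.46 ± 0.18 was 1.00 on scan day 1 and -0.02 on scan day 2, and without control replicate 1 it was 0.28 ± 0.17. Mbl1, a lectin of the complement cascade, differed by 0.28 ± 0.12, with 0.82, 0.005 and 0.24 within the scan days, and by 0.13 ± 0.11 without control replicate 1. Serping1, the C1 inhibitor, differed by 0.25 ± 0.11. C9, a part of the membrane attack complex, differed by 0.55 ± 0.27, with control replicate 1 at 1.80 and the other controls at 3.57 to 4.05, and by 0.22 ± 0.24 without that mouse. C3, the central component, differed by 0.21 ± 0.11, and its second probe gave 0.30 ± 0.12.

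Control replicate 1 was the lowest control in each of these complement genes but C3 and had the lowest level of all 11 mice in C1qc, Mbl1, Serping1 and C9. Serpinf2, the plasmin inhibitor of the coagulation list, showed the same mouse at 4.92, against 6.28 to 7.13 in the other controls and 5.99 to 7.19 in TiO2 livers. Its difference was 0.40 ± 0.16, with 1.35 on scan day 1 and 0.11 on each of the other days, and it was 0.15 ± 0.11 without control replicate 1. The part of this mouse in the differences of other genes was not tested beyond the values given without it.

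Markers of immune cells were counted beside these genes. Of 11 Kupffer cell markers, 9 were higher and 2 lower by sign, with a median of 0.15, where 45.1% of all features were higher, and only C1qc had an unadjusted p under 0.05. The direction turned without scan day 3, with 3 higher and 8 lower and a median of -0.04, and without TiO2 replicate 6 there were 6 higher and 5 lower, with a median of 0.005. Their mean level was 2.47 to 3.89 in TiO2 livers and 2.62 to 3.12 in control livers. Marco, a scavenger receptor of macrophages, had levels of 2.50 to 6.20 in TiO2 livers and 2.63 to 4.35 in control livers, with TiO2 replicate 6 highest, and differed by 0.50 ± 0.37. Within the scan days the Marco difference was 0.66, -0.54 and 1.48. Adgre1, which encodes F4/80, differed by 0.24 ± 0.21. Lyz2, the lysozyme of myeloid cells, differed by 0.43 ± 0.22, with 1.20, -0.27 and 0.68 within the scan days. A second Lyz2 probe gave 0.06 ± 0.09. Of 12 neutrophil markers on the array, Ngp, Camp, Elane, Mmp8 and Mmp9 were well above background on 0 of 11 arrays, and the 4 tested had 2 higher and 2 lower by sign. S100a9, a neutrophil and monocyte calprotectin chain, differed by 0.55 ± 0.35, with TiO2 replicate 6 at 4.98 and the other TiO2 mice at 2.99 to 3.71. The part of macrophage or neutrophil content in the acute phase and complement values was not tested.

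Interferon-stimulated genes were higher by sign in 23 of 27, with a median of 0.13. At an unadjusted p under 0.05, however, 1 of 27 was higher and 1 lower, against 2.25% and 1.99% of all features. Without TiO2 replicate 6 the signs were 18 higher and 9 lower (median 0.06), and without scan day 3 they were 15 and 12 (median 0.006). Ifit1, an antiviral protein that binds foreign RNA, had levels of 0.23 to 0.83 (median 0.49) in TiO2 livers, against 0.15, -0.04, 0.12, 0.20 and 0.21 in control livers. All 6 TiO2 mice were above all 5 control mice, which 17 of all features (0.109%) showed in either direction. Its difference was 0.40 ± 0.12, and limma gave an adjusted p = 0.980. Irf1, an interferon-induced transcription factor, was lower, with levels of -0.42 to 0.05 in TiO2 livers and 0.01 to 0.40 in control livers, a difference of -0.45 ± 0.14. The count of higher members was 3 without control replicate 2 or TiO2 replicate 3 and 7 without scan day 2. Isg15, a ubiquitin-like protein, differed by 0.28 ± 0.15 and Psmb9, an immunoproteasome subunit, by 0.25 ± 0.13.

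Glucocorticoid-responsive genes, which overlap the acute phase through Lcn2, had 13 of 16 members higher by sign and a median of 0.31. Of these, 3 had an unadjusted p under 0.05, all higher, namely Lcn2, Errfi1 and Sgk1, against 2.25% of all features. The median was 0.50 without control replicate 2 and 0.20 without control replicate 3. The count was 5 without control replicate 2 and 6 without TiO2 replicate 3. Errfi1, an inhibitor of EGF receptor signalling, had levels of 2.24 to 3.53 (median 3.32) in TiO2 livers, against 1.21, 2.73, 1.29, 3.68 and 2.01 in control livers. Its difference was 1.05 ± 0.36, and the controls spread over a wider range than the TiO2 mice. Sgk1, a kinase induced by steroids, differed by 0.62 ± 0.24, and Ddit4, an inhibitor of mTOR, by 0.62 ± 0.32. Mt1 and Mt2, the metallothioneins that steroids and zinc induce, differed by 0.43 ± 0.35 and 0.63 ± 0.57. Mt2 ranged from -1.66 to 1.21 among TiO2 livers and from -2.36 to 1.28 among control livers.

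Immediate early genes had 2 of 20 members at an unadjusted p under 0.05, both higher, against 2.25% of all features. Without control replicate 3 there were 2 lower ones besides. Nr4a1, an orphan nuclear receptor induced by many stimuli, had levels of -3.04 to -0.30 (median -2.30) in TiO2 livers, against -3.47, -2.81, -3.90, -3.16 and -2.50 in control livers. Its difference was 1.21 ± 0.32, with 3 of 6 TiO2 mice above all controls and differences of 0.68, 1.24 and 1.64 within the scan days. Myc, a growth-promoting factor, differed by 0.35 ± 0.12, with -0.01, 0.65 and 0.35 within the scan days. Other Myc probes gave 0.23 ± 0.11 and -0.01 ± 0.12.

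Bile acid genes did not move together, with 13 higher and 15 lower by sign among 28. The exception was Cyp7a1, the hydroxylase whose step limits the making of bile acids from cholesterol. Its lowest, median and highest levels were 1.67, 3.18 and 3.78 in TiO2 livers, against 4.88, 2.57, 5.46, 5.29 and 4.33 in control livers. All TiO2 mice were below 4 of 5 controls, and control replicate 2 lay among the TiO2 mice. The difference was -1.69 ± 0.47 (95% interval -2.67 to -0.72), with a limma adjusted p = 0.980 and with -1.67, -0.53 and -2.77 within the scan days. A second Cyp7a1 probe gave -0.47 ± 0.29. Nr0b2, the repressor of Cyp7a1 also called SHP, differed by 0.45 ± 0.30. Slc10a2, the apical bile acid transporter, differed by 0.49 ± 0.29. Of 24 genes of cholesterol synthesis and uptake, 1 was lower at an unadjusted p under 0.05, against 1.99% of all features. It was Hmgcs1, the synthase that precedes HMG-CoA reductase, at -0.48 ± 0.21, while its second probe gave 0.02 ± 0.16.

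PPARA targets and genes of fatty acid oxidation were lower by sign in 27 of 38, with a median of -0.17, or -0.06 without control replicate 1. At an unadjusted p under 0.05, 4 of 38 were lower and 1 higher, against 1.99% and 2.25% of all features. Acaa1a, a peroxisomal thiolase, had levels of 1.28 to 1.65 (median 1.51) in TiO2 livers, against 2.12, 1.74, 1.58, 1.83 and 1.79 in control livers. Its difference was -0.31 ± 0.09, or -0.21 ± 0.08 without control replicate 1, and its other probes gave -0.02 ± 0.11 and -0.31 ± 0.13. Acadl, a mitochondrial acyl-CoA dehydrogenase, differed by -0.34 ± 0.14, or by -0.22 ± 0.14 without that mouse, and Acaa2, a mitochondrial thiolase, by -0.17 ± 0.07. Ucp2, an uncoupling protein that macrophages also express, was the member that was higher, by 0.26 ± 0.11, with 0.34, -0.08 and 0.53 within the scan days. The count of lower members was 2 without control replicate 1, TiO2 replicate 5 or scan day 3, and 7 without control replicate 2.

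Subunits of oxidative phosphorylation were lower by sign in 23 of 32, with a median of -0.13, where 54.9% of all features were lower, and 4 of 32 were lower at an unadjusted p under 0.05, against 1.99%. These were Cyc1 and Uqcrc1 of complex III (-0.23 ± 0.08 and -0.20 ± 0.09), Ndufs3 of complex I (-0.20 ± 0.09) and Sdhc of complex II (-0.28 ± 0.13). Ndufs3 was -0.11 ± 0.09 without control replicate 1, and a second Uqcrc1 probe gave -0.06 ± 0.10. Leaving out single mice gave 1 to 6 lower members, with 1 without control replicate 1 or TiO2 replicate 4 and 2 without control replicate 3 or TiO2 replicate 2, 5 or 6. Leaving out a scan day gave 1 without scan day 3 and 2 without scan day 1 or 2. All 6 urea cycle genes were lower by sign, with a median of -0.18. An unadjusted p under 0.05 was found for 0 of the 6, against 4.23% of all features. Without scan day 3 there were 4 lower and 2 higher, with a median of -0.03.

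Genes of gluconeogenesis, glycolysis and glycogen had 3 of 20 members higher at an unadjusted p under 0.05, against 2.25% of all features, and were mixed in sign, with 9 higher and 11 lower. G6pc, the catalytic subunit of glucose-6-phosphatase, differed by 0.49 ± 0.16, with levels of 4.79 to 6.09 in TiO2 livers and 3.85 to 5.98 in control livers. Foxo1, a fasting-activated transcription factor, differed by 0.34 ± 0.15, but control replicate 1 stood at -0.26 against 0.42 to 0.59 in the other controls, and the difference was 0.21 ± 0.15 without it. Its second probe, well above background on all 11 arrays, gave -0.13 ± 0.12, and the mean of both probes 0.11. Slc2a1, a glucose importer, differed by 0.23 ± 0.10. The count was 1 without control replicate 1 or 2, TiO2 replicate 2 or scan day 2, 0 without scan day 1 and 5 without control replicate 4. Igfbp1, a binding protein of insulin-like growth factors that hepatocytes make in fasting and inflammation, had levels of 7.09 to 8.86 (median 8.17) in TiO2 livers, against 7.09, 7.98, 6.42, 7.70 and 8.10 in control livers. Its difference was 0.69 ± 0.20, with 4 of 6 TiO2 mice above all controls, and was 0.42 ± 0.15 without control replicate 3. Bcl6, a repressor in the growth hormone axis, was spread widely, with levels of -0.70 to 1.07 in TiO2 livers, against 2.84, -1.02, 1.90, -0.58 and 2.47 in control livers. Its difference was -1.22 ± 0.59, and the groups overlapped in their lower range. Lpin1, a phosphatidate phosphatase induced by fasting, differed by 0.93 ± 0.45. Of 14 circadian clock genes 0 had an unadjusted p under 0.05, against 4.23% of all features. Their differences ranged from -0.63 to 0.20.

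Cytochrome P450 genes of families 1 to 3 had 1 of 32 higher and 1 of 32 lower at an unadjusted p under 0.05, against 2.25% and 1.99% of all features. Cyp2c29, the higher one, differed by 0.26 ± 0.11, with 0.82, 0.08 and 0.12 within the scan days, and by 0.11 ± 0.09 without control replicate 1. Cyp2b13, a female-predominant hepatic P450 of the mouse, differed by -0.54 ± 0.22, with -0.61, 0.01 and -1.14 within the scan days. Without TiO2 replicate 6 it was -0.33 ± 0.19, and its second probe gave 0.20 ± 0.14. Cyp2b10, a target of the nuclear receptor CAR, differed by 0.59 ± 0.33.

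Genes of the NRF2 and antioxidant list were lower by sign in 19 of 26, with a median of -0.12, or -0.05 without control replicate 1. At an unadjusted p under 0.05, 1 was lower and 1 higher, against 1.99% and 2.25% of all features. Nqo1, a quinone reductase and standard NRF2 target, differed by -0.35 ± 0.11, while Srxn1, the sulfiredoxin, differed by 0.31 ± 0.13. Srxn1 was 1.02, 0.20 and 0.02 within the scan days and 0.09 ± 0.09 without control replicate 1, which left 0 higher members, and its other probes gave 0.03 ± 0.10 and 0.05 ± 0.12. The count of lower members was 3 without control replicate 4 or TiO2 replicate 2, 4 without scan day 2, 5 without control replicate 2 and 6 without TiO2 replicate 3. Hmox1, the haem oxygenase induced by oxidants, differed by -0.21 ± 0.20 (95% interval -0.64 to 0.21). Of 22 genes of the unfolded protein response, 3 were higher and 1 lower at an unadjusted p under 0.05, against 2.25% and 1.99% of all features. The higher ones were Calr, Dnajc3 and Sdf2l1, with differences of 0.33 ± 0.11, 0.30 ± 0.13 and 0.64 ± 0.27. They encode chaperones and co-chaperones of the endoplasmic reticulum, and a second Calr probe gave 0.07 ± 0.13. Other Dnajc3 probes gave 0.10 ± 0.17, 0.30 ± 0.13 and 0.11 ± 0.13. The lower one was Ddit3, the stress factor CHOP, at -0.27 ± 0.11. The count of higher members was 1 without control replicate 1 or 4, TiO2 replicate 1 or scan day 2. Among 19 p53 targets, 2 were higher and 1 lower at an unadjusted p under 0.05, against 2.25% and 1.99% of all features. With single mice left out, 1 to 3 were higher and 0 to 2 lower. Trp53inp1, a p53-induced stress protein, differed by 0.82 ± 0.30 and Mdm2, the ubiquitin ligase of p53, by -0.22 ± 0.08. Cflar, which blocks caspase 8, differed by -0.38 ± 0.12, and another of its probes gave 0.01 ± 0.10.

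**Figure D4:**
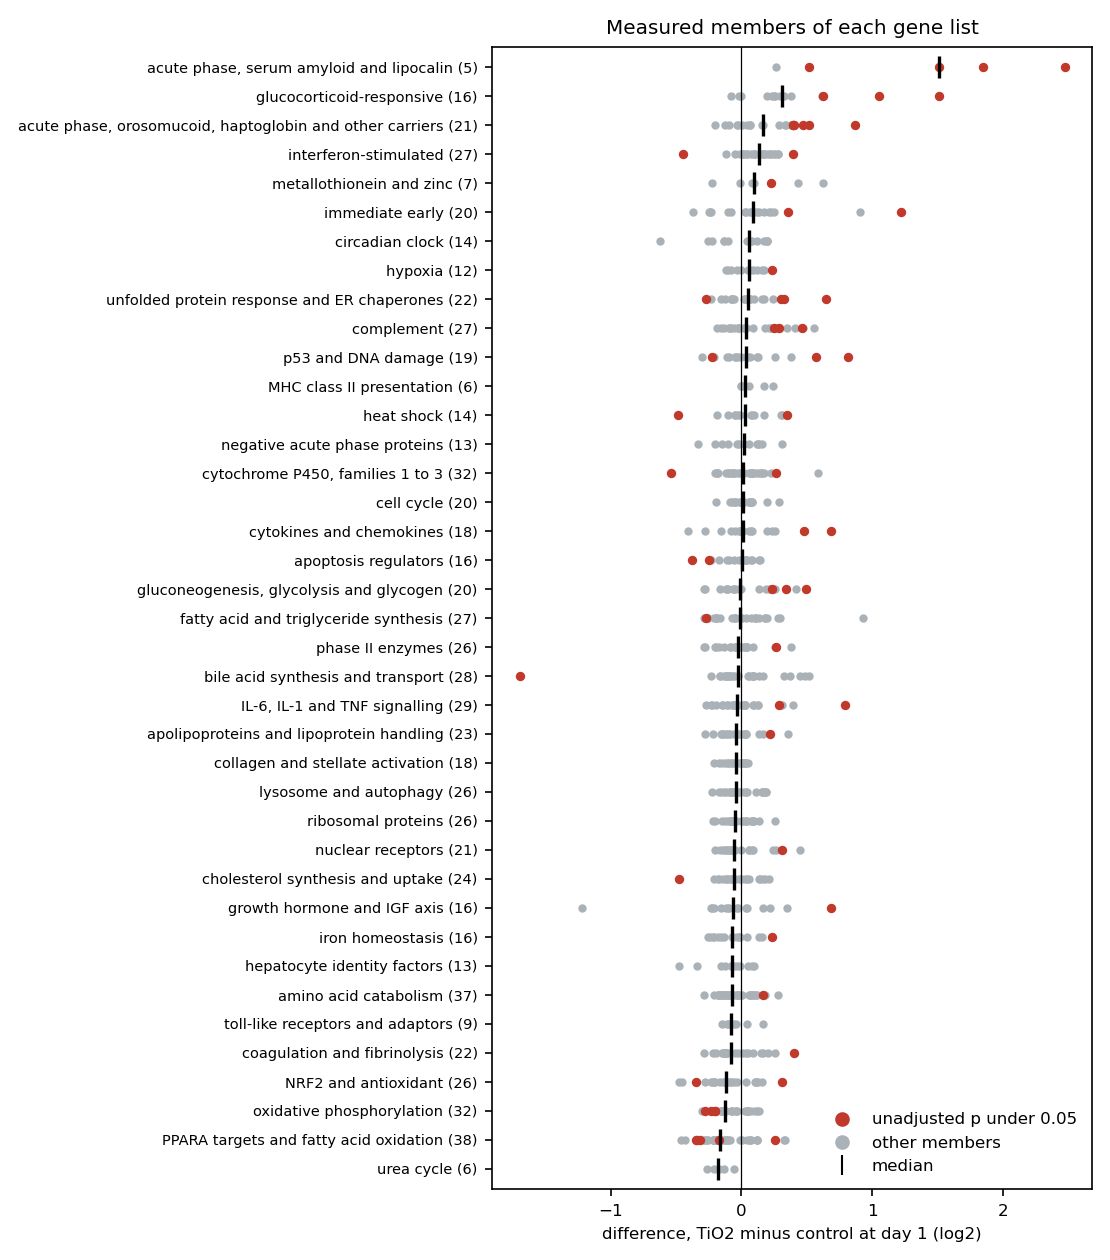
Difference between TiO2 and control livers at day 1 (log2, horizontal axis) for the measured members of 39 gene lists, with the number measured in brackets. Red points have an unadjusted p under 0.05, grey points are the other members, and black ticks are the medians. The serum amyloid and lipocalin list has its median at 1.51, and the other lists have medians between -0.18 and 0.31.

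Beyond these lists, the lowest p-values among higher genes included Rgs1, Fes and Ankrd33b. Rgs1, a regulator of G protein signalling in immune cells, had levels of -0.01 to 1.87 (median 0.96) in TiO2 livers, against -0.31, 0.79, -0.9997, 0.11 and 0.25 in control livers. Its difference was 1.01 ± 0.27, with 4 of 6 TiO2 mice above all controls, and the probe was well above background in 6 of 6 TiO2 mice and 3 of 5 control mice. Fes, a tyrosine kinase of myeloid cells, differed by 0.36 ± 0.10 and Ankrd33b, an ankyrin repeat protein, by 0.51 ± 0.13. Second probes of Fes and Ankrd33b gave 0.11 ± 0.11 and 0.05 ± 0.09.

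Among lower named genes the lowest p-value was that of Thumpd1, an RNA acetylation adaptor, with levels of 0.44 to 0.88 in TiO2 livers and 0.79 to 1.35 in control livers and a difference of -0.37 ± 0.10. H4c6, a histone H4 gene, differed by -0.36 ± 0.09, Bag5, an HSP70 co-chaperone, by -0.28 ± 0.08 and Nufip1, an RNA-binding assembly factor, by -0.25 ± 0.08. Rnf170, a ubiquitin ligase of the endoplasmic reticulum, had levels of 1.77 to 4.12 (median 2.25) in TiO2 livers, against 4.54, 2.24, 3.97, 3.30 and 4.35 in control livers. Its difference was -1.23 ± 0.34, and its other probes gave 0.02 ± 0.12 and -0.22 ± 0.09. For Mtus2, a microtubule-associated protein, 0 of 6 TiO2 arrays and 3 of 5 control arrays were well above background. The probe passed the filter through the control arrays alone, so its lower TiO2 level gives no support of its own. Its mean red signal over all 5 controls, dim ones included, was at least 1.31-fold that over the TiO2 arrays. For this bound, TiO2 signals under the lowest one counted as measurable on their array were raised to it. Of 17 features whose groups did not overlap, 10 were higher in TiO2 livers (0.0639%) and 7 lower (0.0447%), Mtus2 and Ifit1 among them.

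At day 28 the same genes had been measured in other mice, and the day 28 differences are given here only against those at day 1. Saa3 differed by 0.01 ± 0.49 at day 28, Saa1 by -0.01 ± 0.37 and Lcn2 by 0.39 ± 0.28. The day 1 difference exceeded the day 28 one by 2.46 ± 0.66 in Saa3, by 1.85 ± 0.50 in Saa1 and by 1.11 ± 0.38 in Lcn2, each with a limma adjusted p = 0.999 over all features. Of these tests 0 passed over 15658 features, and 466 (2.98%) had an unadjusted p under 0.05. Saa3, Saa1 and Lcn2 were picked for the lowest day 1 p-values, which favours a larger excess over day 28. Cyp7a1 differed by -1.23 ± 0.50 at day 28, and its day 1 difference lay 0.46 below that, with an SE of 0.68. Apcs differed by 0.52 ± 0.18 at day 28 and C1qb, another chain of C1q, by 0.51 ± 0.19, against 0.40 ± 0.17 and 0.34 ± 0.18 at day 1.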

How the data were processed

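Liver RNA of 21 mice was measured on Agilent arrays with 2 colours. The deposited scanner values are intensity, not normalized, as medians over the pixels of the spot and of the area around it, per the file headers. LogRatio, a second deposited column, is log10 of the processed red over green signal, and the authors' deposited table of processed values is log2 with its scale and centring not stated. Feature Extraction 10.7.3.1 is named per the file headers and 9.5.3.1 per the submitters' processing notes. The mean spot signal was not used here because the files hold the median.

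Background was corrected in limma 3.58.1 (R 4.3.3) by normexp with an offset of 50, where spots marked deviant received the median background of the other spots. Loess within arrays followed, with control spots at weight 0 and spots of a probe averaged. Symbols came from RefSeq accessions through a GRCm38.p6 table, found for 23374 of 41174 probes. Probes well above background in Cy5 on at least 50% of the arrays of either day 1 group were kept, with the brightest probe per named gene. Between 14069 and 26616 probes per day 1 array were well above background in Cy5.

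Day 1 groups were compared in limma over all 21 arrays, in a model of 4 group means and scan day, two-sided, with Benjamini-Hochberg adjustment over every feature and a threshold of 0.05. Of the features, 202 lacked a value on at least 1 array and were fitted on the others. Genes were named by rule: the 8 lowest p-values in each direction, up to 4 per list, members whose groups did not overlap, and a fixed set of acute phase, bile acid, metallothionein and haem genes. Not every gene the rule allows is described. The members, gene lists and tests were chosen with earlier results of these data known. The model was tested on simulated data. The alternatives cover blocks, background correction, scaling, filters, probes, weights and left-out arrays. The design text speaks of 22 arrays, and 21 were analysed here.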

Additional observations from a re-analysis of the deposited data

Results flagged for a closer look

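Some mice lay far from the others of their group, by the gap to the nearest mouse over the range of the group. This was so for 16 of 176 pairs of a named gene and a group, and 10 of the 16 fell on control replicate 1. By chance alone the rule flags about 1 in 20 pairs. That rate does not hold here, because the levels were not adjusted for scan day and genes of 1 mouse are not independent. Control replicate 1 was the only day 1 control of scan day 1. That mouse was lowest among controls in Saa2 (3.447, nearest 4.718), Hp (5.67, nearest 6.651), Ccl6 (2.088, nearest 2.784), C1qc (2.918, nearest 4.323), Serping1 (3.967, nearest 5.227), C9 (1.798, nearest 3.566), Foxo1 (-0.2642, nearest 0.4209) and Ankrd33b (-0.2275, nearest 0.33). It was highest among controls in Acadl (3.319, nearest 2.558) and Ndufs3 (1.582, nearest 1.061). TiO2 replicates 1 and 2, of the same scan day, were the 2 lowest TiO2 mice in Hp, Serping1, C9 and Ankrd33b. They were the 2 highest in Acadl and Ndufs3, but did not stand together in this way in Saa2, Ccl6, C1qc or Foxo1. The part of scan day in these flags was not tested. Control replicate 4 was high in Orm3 (3.793, nearest 2.732), and control replicate 2 was low in Il1rap (4.062, nearest 4.799). Among TiO2 mice, replicate 2 was low in Isg15 (-1.122, nearest -0.4115), replicate 6 high in S100a9 (4.98, nearest 3.707), replicate 4 high in Foxo1 (0.9963, nearest 0.6784) and replicate 1 low in Errfi1 (2.236, nearest 3.2). These values are levels on the log2 scale, and what set these mice apart was not tested.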

How the results depend on the processing

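Under 30 alternatives the number of features called by limma was 0 in 28. Leaving out single mice gave 0 to 3, with 3 without TiO2 replicate 2, and a random slide block with no scan day term, chosen after seeing the data, gave 3. Both times these were Lcn2, Saa3 and Saa1, in each of which TiO2 replicate 2 lay within the control range. Over all alternatives Lcn2 ranged between 1.27 and 2.29, Saa3 between 1.95 and 2.86, Saa1 between 1.42 and 2.92, Saa2 between 0.27 and 3.22 and Cyp7a1 between -2.33 and -1.08. The count at an unadjusted p under 0.05 ranged between 277 of 15658 features (no scan day in the model) and 1349 (no filter on dim probes). The latter is out of 34335 features, so it is no rise in share by itself. There were 348 under array weights and 398 and 1006 without scan days 1 and 2, each of 15658. Of 88 named genes, 80 kept their sign throughout. Alb turned positive with slide as a fixed block (0.020), an offset of 10 (0.033), no background subtraction (0.0019), the liver channel alone (0.063), array weights (0.033) and without scan day 1 (0.096). Orm1 turned to -0.0017, Socs3 to -0.13 and Il1rap to 0.072 with the scanner software's ratios. Hamp came to 0.46 from the liver channel alone. Without scan day 1 Socs3 was -0.20, and without scan day 3 Socs3 was -0.031, Marco -0.031 and Adgre1 -0.12. With single mice left out, Alb ranged from -0.078 to 0.13, Socs3 from -0.17 to 0.23, Hamp from -0.12 to 0.057 and Hmox1 from -0.34 to 0.0017. The cause of these reversals was not tested. With normexp on all spots, 3 day 28 arrays correlated below 0.95 with their main values (0.67, 0.88 and 0.89). They were left out of that alternative for this reason, so it was filtered for likeness to the main processing. By replicate number, no paired analysis was possible because the numbers were given here in accession order and pair no mice. Slides, however, paired mice of both groups, and with slide as a fixed block in place of scan day Lcn2 was 1.58, Saa3 2.57 and Saa1 1.92, each with a limma adjusted p = 0.069. Probes near background limit what can be seen of genes such as Mtus2, and a difference that missed the threshold may still be present.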
